A study of Mus musculus with 6 samples.

Results

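The genes described here are the mitochondrial carriers of the Slc25 family, taken as every gene of the deposited table whose name starts with Slc25a. The table held 47 such genes among 21958 protein-coding genes, and 37 of the 47 passed the filter on low counts, among 12255 genes in all. They were read in mouse synaptoneurosomes, a filtered brain fraction enriched in synapses with their presynaptic and postsynaptic compartments. The material came from hippocampus and the adjoining cortex of FVB mice aged 6 to 8 weeks, with several animals pooled in each preparation. The first group, called polyribosomes below, was RNA of light and heavy polyribosomes, pooled from a sucrose gradient, after a 30 s pulse of 50 µM NMDA with 10 µM glutamate and a 20 min incubation with the NMDA receptor blocker APV (120 µM). The second group, called total RNA, held ribosomal-RNA-depleted total RNA of synaptoneurosomes that were kept unstimulated. Each group had 3 libraries, numbered by preparation. The groups differed in both stimulation and RNA fraction. In the paper's general protocol, unstimulated controls also stayed on ice with cycloheximide, while stimulated samples were prewarmed and incubated warm. These differences cannot be told apart.

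The family comprises small membrane proteins encoded in the nucleus, most of which sit in the mitochondrial inner membrane and exchange one metabolite for another between cytosol and matrix. They move ADP and ATP, phosphate, the acids and amino acids of the citrate cycle and the malate-aspartate shuttle, and cofactors such as coenzyme A and NAD+, which mitochondria at a synapse must obtain from outside. Most are made on cytosolic ribosomes without a cleaved presequence and reach the inner membrane through the small TIM chaperones and the TIM22 complex.

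The libraries held between 5294482 and 7361580 counts on polyribosomes and between 1044955 and 3738022 in total RNA, total RNA replicate 3 being the shallowest. The carriers took between 2141 and 16071 of these counts in a library. Levels are given as CPM, counts scaled to the library size with TMM factors, and a positive log2 fold change means a higher level on polyribosomes. Genes were compared with the quasi-likelihood test of edgeR, calling those with a Benjamini-Hochberg adjusted p under 0.01 over all genes tested, without pairing (the unpaired fit) and with the preparation as a block (the paired fit). The labels do not say that the preparations came from separate animals, so p-values measure only the spread between these preparations, which may be technical. All 12 neuronal and synaptic marker genes were detected, and so were all listed markers of astrocytes, oligodendrocytes, microglia and endothelial cells, so the fraction also held RNA of other cell types. In such bulk RNA, fewer cells of a type and less RNA per cell cannot be told apart. Exons of Slc25a10, Slc25a23, Slc25a25, Slc25a26, Slc25a33, Slc25a35, Slc25a37 and Slc25a46 overlap a gene on the opposite strand in GENCODE vM21, and without knowing whether strand was used in counting their reads cannot be told apart.

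The carriers did not move together. Slc25a36, a pyrimidine nucleotide carrier, and Slc25a27, a brain homologue of the uncoupling proteins, were lower on polyribosomes in the unpaired fit, with log2 fold changes of -1.36 (SE 0.27, adjusted p = 0.00728) and -1.28 (SE 0.23, adjusted p = 0.00386). The largest positive log2 fold change in the family was that of Slc25a18, a mitochondrial glutamate carrier, at 0.88 (SE 0.19, adjusted p = 0.0110), just outside the threshold. Of the 37 carriers tested, 16 had a positive and 21 a negative log2 fold change, and their median of -0.15 stood beside one of 0.00097 over all genes tested. TMM scaling assumes that most genes do not change, so each log2 fold change is relative to the other genes. Within preparations 1, 2 and 3 the median difference over the carriers was -0.018, -0.017 and 0.092.

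In the unpaired fit 2 carriers were lower, where 2.36% of all genes tested were, and 0 were higher, where 0.71% of all genes were. At an unadjusted p under 0.05 the same edgeR test gave 10 carriers higher, against 15.4% of all genes, and 6 lower, against 17.1%. At an adjusted p under 0.05 it gave 3 higher and 4 lower, against 6.52% and 8.85% of all genes. DESeq2 called 1 carrier higher and 2 lower of the 32 to which it gave an adjusted p, against 3.31% and 3.83% of all genes.

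The paired fit called 7 carriers higher and 5 lower. These are 18.9% and 13.5% of the carriers tested, beside 11.8% and 13.2% of all genes tested. The 7 were Slc25a1, Slc25a4, Slc25a5, Slc25a10, Slc25a18, Slc25a22 and Slc25a34, and the 5 were Slc25a27, Slc25a36, Slc25a37, Slc25a40 and Slc25a51. Leaving out preparation 1, 2 or 3 from the paired fit, an alternative chosen after seeing the data, gave 3, 1 and 3 carriers higher and 3, 2 and 5 lower. Of all genes tested in these fits 5.15%, 4.19% and 11.7% were higher and 7.47%, 5.52% and 12.8% lower. Slc25a18, Slc25a27 and Slc25a36 were called in all 3 of these fits, and the other 9 carriers of the paired fit in at most 1. An offset for GC content and exon length in the paired fit left 2 carriers higher, against 8.68% of all genes, and 6 lower, against 7.39%. Of the 7 and 5 carriers called without the offset, 2 (Slc25a5 and Slc25a18) and 3 (Slc25a27, Slc25a36 and Slc25a37) were also called with it.

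By the levels alone, the 3 polyribosome values lay above all 3 total RNA values for 10 carriers and below them for 9. Over all genes tested these shares were 17.4% and 18.9%. The plot of log2 fold changes by transported substrate shows every carrier tested with its preparations.

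**Figure D1:**
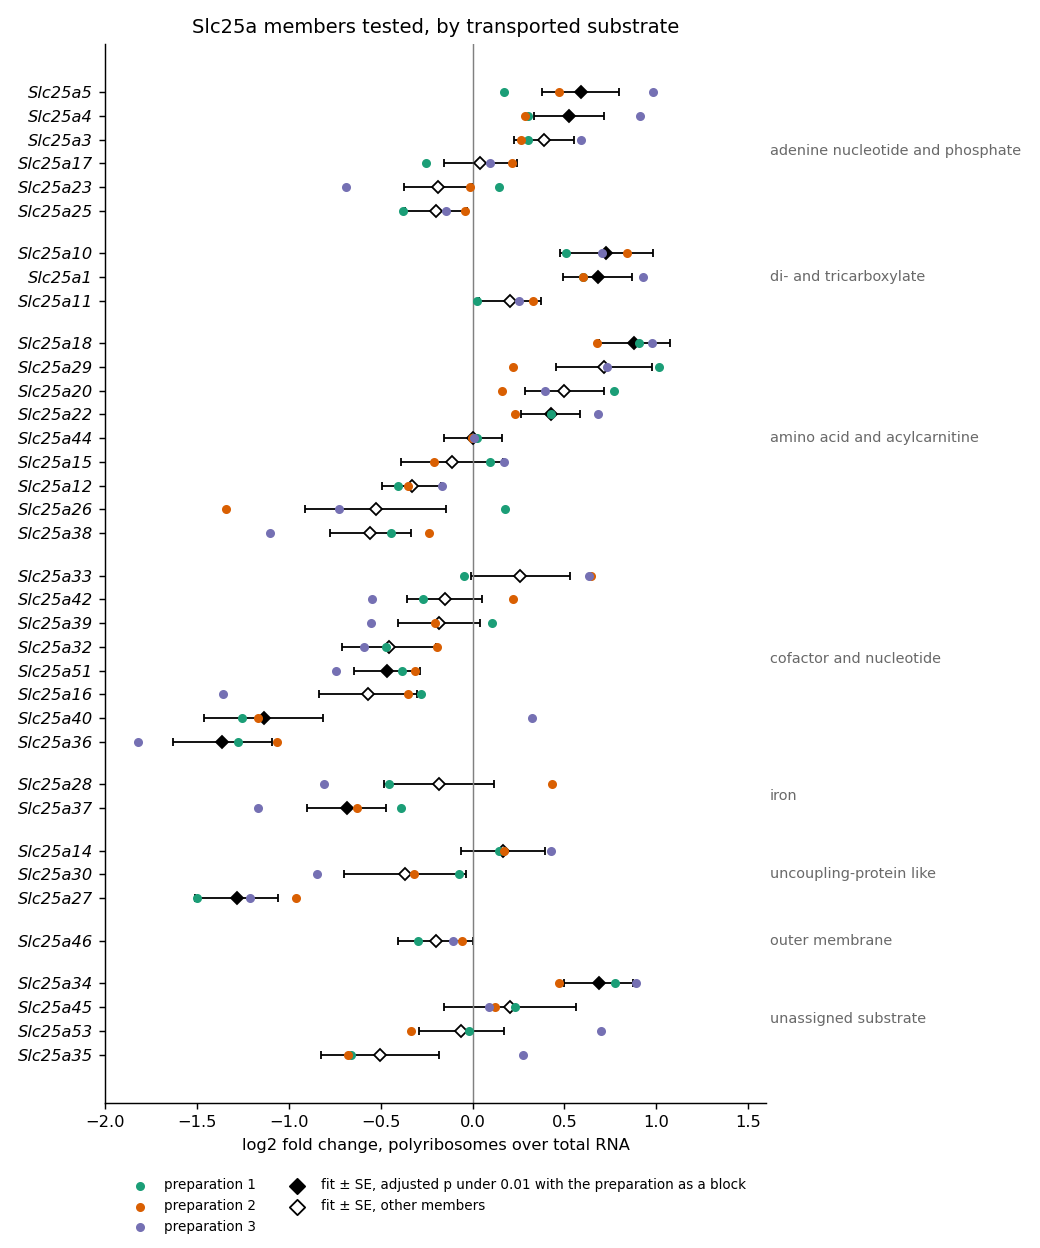
Log2 fold change of polyribosomes over total RNA for 36 of the 37 Slc25a genes tested, grouped by transported substrate. Diamonds are the unpaired fit with its SE, filled where the paired fit gave an adjusted p under 0.01, and coloured points are the differences within preparations 1 to 3. Slc25a36 and Slc25a27 lie farthest left, at -1.36 and -1.28, and Slc25a18 farthest right, at 0.88.

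The start codons of the 3 carriers that were called in every paired fit are shown with those of their nearest relatives, since ribosomes choose the start site by the bases around it. The sequences come from the GENCODE vM21 transcripts (GRCm38), 10 bases before to 3 after the annotated start codon, and the capitals mark the start codon and the bases at -3 and +4, counted from the A of the start codon as +1, where a purine and a G favour initiation.
Slc25a36: agaagagAgaATGAgc
Slc25a33: cggcgcgGccATGGcg
Slc25a27: ttgctgcTgaATGCct
Slc25a14: cagagggTgaATGGgt
Slc25a18: gctgccgTggATGAtc
Slc25a22: cttggtgTaaATGGct
Among the carriers tested, 27 of 37 had a purine at -3 (73.0%), against 86.2% of 11788 genes tested with such a sequence, and 22 had a G at +4 (59.5%), against 52.5%. Both bases were present in 43.2% of the carriers and 45.2% of all genes. None of the 3 carriers has a G at +4, while each of their listed relatives does. At -3 Slc25a36 and Slc25a33 have a purine, and Slc25a27, Slc25a14, Slc25a18 and Slc25a22 have a T. Whether these bases bear on the log2 fold changes was not tested.

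Per kb of exon, 4 of the 5 most abundant carriers move adenine nucleotides or phosphate. Slc25a4 and Slc25a5 exchange ADP for ATP across the inner membrane. Slc25a4 (chromosome 8, 46206797 to 46211284, mm10) stood at 385, 406 and 596 CPM in polyribosome replicates 1 to 3 and at 313, 333 and 316 CPM in the total RNA of the same preparations. All polyribosome values were above the total RNA values, with the widest gap in preparation 3. The log2 fold change was 0.53 (SE 0.19, adjusted p = 0.0717) in the unpaired fit and 0.49 (SE 0.13, adjusted p = 0.00123) in the paired fit. It was 0.31 in the unpaired fit without polyribosome replicate 3. The paired call was lost without preparation 2 (0.60, adjusted p = 0.0343) or preparation 3 (0.28, adjusted p = 0.0131). It was also lost with the offset for GC content and length (0.31, adjusted p = 0.0444). For Slc25a5 (chromosome X, 36795651 to 36798807), levels were 153, 166 and 271 CPM on polyribosomes and 136, 120 and 137 CPM in total RNA. The groups did not overlap here either, and preparation 3 again had the widest gap. Its log2 fold change was 0.59 (SE 0.21, adjusted p = 0.0700) unpaired and 0.51 (SE 0.13, adjusted p = 0.000765) paired. Without polyribosome replicate 3 the unpaired value was 0.29. The paired value no longer passed without preparation 2 (0.56, adjusted p = 0.0428) or preparation 3 (0.31, adjusted p = 0.0130). The value of Slc25a5 is uncertain, because 46.6% of the 50-base stretches of its transcripts also occur in transcripts of 9 pseudogenes, so the counting could have split its reads. No such stretch of Slc25a4 is shared.

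Slc25a3, which imports the phosphate for ATP synthesis, was at 210, 200 and 247 CPM on polyribosomes and at 170, 166 and 164 CPM in total RNA. The groups did not overlap, and the log2 fold change of 0.39 did not pass in the unpaired fit (SE 0.16, adjusted p = 0.111) or in the paired fit (adjusted p = 0.0124). Slc25a23, a calcium-regulated exchanger of ATP-Mg for phosphate, was at 434, 426 and 336 CPM on polyribosomes and at 394, 431 and 543 CPM in total RNA. Its groups overlapped, preparation 3 going down by 0.69 on the log2 scale while preparation 1 went up by 0.14. Its log2 fold change was -0.19 (SE 0.18, adjusted p = 0.512) in the unpaired fit, and -0.38 (adjusted p = 0.00925) in the paired fit with the offset for GC content and length, whereas the adjusted p of its alternatives reached 0.874. The related Slc25a25 was at 36.5, 41.6 and 38.9 CPM on polyribosomes and at 47.7, 42.9 and 43.2 CPM in total RNA, all polyribosome values being below, with a log2 fold change of -0.20 (adjusted p = 0.435). Slc25a17, a peroxisomal carrier, had a log2 fold change of 0.041.

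**Figure D2:**
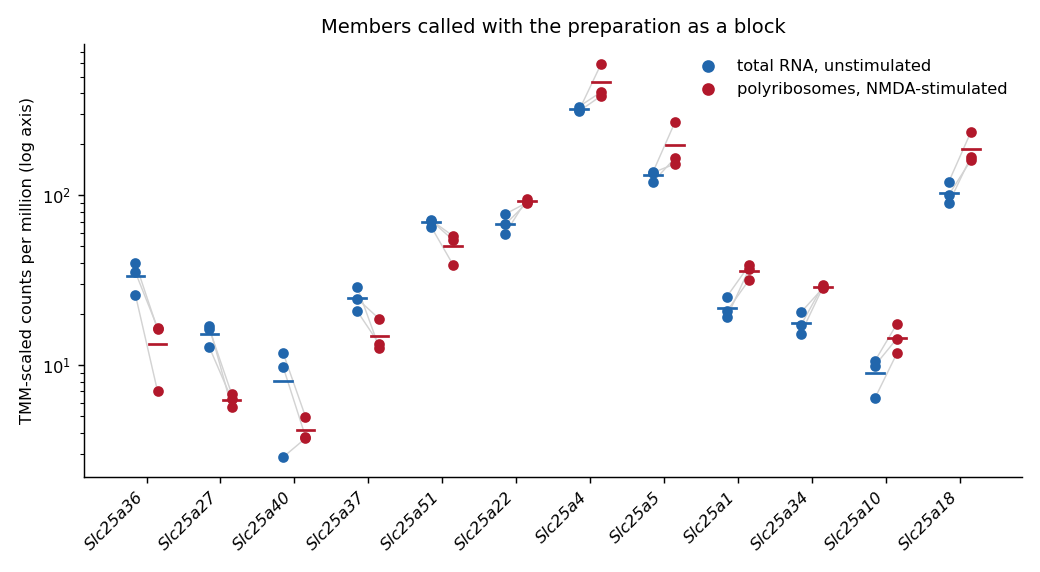
TMM-scaled CPM (log axis) of the 12 carriers called in the paired fit, in total RNA (blue) and on polyribosomes (red). Points are libraries, short lines are group means, and grey lines join the libraries of 1 preparation. In Slc25a40 preparation 3 went the other way, from 2.88 to 3.71 CPM.

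Carriers of di- and tricarboxylates had positive log2 fold changes in 3 of 3 members tested, between 0.20 and 0.73, and none of these passed the unpaired test. Slc25a1, which exports the citrate used for lipid synthesis, was at 38.7, 31.8 and 36.9 CPM on polyribosomes against 25.3, 20.8 and 19.2 CPM in total RNA. Slc25a10, which exchanges dicarboxylates such as malate and succinate for phosphate, was at 14.3, 11.7 and 17.5 CPM against 9.93, 6.36 and 10.5 CPM. In both genes every polyribosome value was above every total RNA value. Their log2 fold changes were 0.68 (SE 0.19, adjusted p = 0.0285) and 0.73 (SE 0.25, adjusted p = 0.0621) in the unpaired fit, and the paired adjusted p was 0.000331 and 0.00786. With the offset for GC content and length the paired log2 fold changes shrank to 0.22 and 0.19 (adjusted p = 0.307 and 0.546). These transcripts are rich in GC, at 59.1% and 60.6%, beside a median of 50.6% over all genes tested. Slc25a11, the oxoglutarate-malate exchanger of the malate-aspartate shuttle, was at 38.1, 41.3 and 43.4 CPM on polyribosomes and at 37.5, 32.8 and 36.4 CPM in total RNA. These values did not overlap, yet its log2 fold change of 0.20 (SE 0.17, adjusted p = 0.439) did not pass and turned to -0.089 in the paired fit with the offset.

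The carriers of amino acids and acylcarnitines went in both directions, with 5 positive and 4 negative log2 fold changes among 9 tested and a median of 0.0038. Slc25a18 and Slc25a22 bring glutamate into the matrix. Slc25a18 (chromosome 6, 120773768 to 120793982) was at 169, 161 and 236 CPM on polyribosomes and at 89.6, 100 and 120 CPM in total RNA, the lowest polyribosome value lying above the highest total RNA value. Its 3 differences within preparations were 0.91, 0.68 and 0.98, and its log2 fold change of 0.88 was higher than that of 97.1% of all genes tested. In the paired fit it was 0.85 (SE 0.13, adjusted p = 2.94e-08), and with the offset for GC content and length 0.61 (adjusted p = 1.05e-05). Over 14 alternatives the adjusted p lay between 2.94e-08 and 0.0749, and 4 of them were under the threshold, with log2 fold changes between 0.61 and 0.99. Slc25a22, whose loss causes an early epileptic encephalopathy in humans, was at 90.6, 90.8 and 95.5 CPM against 67.3, 77.4 and 59.5 CPM. Its groups did not overlap, and its log2 fold change was 0.43 (SE 0.16, adjusted p = 0.0849) unpaired and 0.42 (SE 0.13, adjusted p = 0.00654) paired, but 0.12 (adjusted p = 0.479) paired with the offset.

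Slc25a18 is known as the glutamate carrier of astrocytes, so the astrocyte markers were read beside it. All 12 of them were positive on the log2 scale, between 0.099 and 1.06 around a median of 0.48. The lowest was Aqp4 and the highest Aldoc, none passed the unpaired test and 8 were higher in the paired one, where 11.8% of all genes tested were. The paired test also called 4 of 9 oligodendrocyte, 4 of 9 microglial and 1 of 8 endothelial markers higher. Of the 12 neuronal and synaptic markers it called 3 higher and 2 lower, where 13.2% of all genes tested were lower. The summed level of the astrocyte markers was between 48792 and 52777 CPM on polyribosomes and between 38308 and 42528 CPM in total RNA. Summed markers of oligodendrocytes went from a range of 8160 to 11592 CPM in total RNA to 11318 to 15448 CPM on polyribosomes, with 9 of 9 genes positive, from Mobp at 0.18 to Cldn11 at 0.83, which alone of these passed the unpaired test (SE 0.17, adjusted p = 0.00751). For microglia these ranges were 621 to 858 CPM and 953 to 1107 CPM, also with 9 of 9 genes positive, from P2ry12 at 0.018 to C1qa at 0.72. Neuronal and synaptic markers were positive in 6 of 12 genes, with a median of 0.0094 and sums of 10934 to 12286 CPM and 11657 to 14342 CPM, from Gad2 at -0.66 to Syp at 0.65. Endothelial markers were positive in 6 of 8 genes, from Tek at -0.36 to Cldn5 at 0.92, with sums of 317 to 338 CPM in total RNA and 298 to 547 CPM on polyribosomes. The part of cell type in the values of the carriers was not tested.

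Slc25a12, the aspartate-glutamate exchanger of neurons, was at 52.9, 56.3 and 52.1 CPM on polyribosomes and at 70.3, 72.0 and 58.5 CPM in total RNA. All 3 polyribosome values were below, and the log2 fold change of -0.33 (SE 0.16) did not pass (adjusted p = 0.169 unpaired, 0.0354 paired). Slc25a44, a carrier of branched-chain amino acids, was the most even member, at 119, 127 and 110 CPM on polyribosomes and 117, 127 and 109 CPM in total RNA. Its fitted log2 fold change was 0.0038 (SE 0.16), and within the preparations the differences were 0.025, -0.0045 and 0.0054. Slc25a29, a carrier of basic amino acids, had a log2 fold change of 0.71 (SE 0.26, adjusted p = 0.0741), and Slc25a20, which exchanges carnitine for acylcarnitines on the way to fatty acid oxidation, one of 0.50 (SE 0.22, adjusted p = 0.124). Slc25a38, which imports the glycine for heme synthesis, had one of -0.56 (SE 0.22, adjusted p = 0.0956). With the offset in the paired fit Slc25a38 reached -0.82 (adjusted p = 0.000318), and its unpaired and paired fits without it did not pass. The ornithine carrier Slc25a15 and the S-adenosylmethionine carrier Slc25a26 had values of -0.11 and -0.53, neither past the threshold.

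Among the 9 carriers of cofactors and nucleotides, 8 were negative on the log2 scale, around a median of -0.46, and in the paired fit with the offset for GC content and length 7 of the 9 were negative, with a median of -0.36. Slc25a36 (chromosome 9, 97074961 to 97111157) supplies pyrimidine nucleotides to the matrix, where they serve the synthesis of mitochondrial DNA and RNA. It was at 16.2, 16.6 and 7.0 CPM on polyribosomes and at 40.0, 35.2 and 25.9 CPM in total RNA. Every polyribosome value was below every total RNA value, and the differences within preparations were -1.28, -1.07 and -1.82. Its log2 fold change was lower than that of all but 0.906% of the genes tested. The paired fit gave -1.30 (SE 0.16, adjusted p = 1.11e-10), and the offset brought this to -0.89 (adjusted p = 5.88e-07). It was called in 10 of 14 alternatives, with adjusted p between 1.11e-10 and 0.0478, and the unpaired call was lost with the offset and without polyribosome replicate 2, total RNA replicate 1 or total RNA replicate 2. Of its 50-base stretches 11.7% also occur in 1 pseudogene.

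The glutathione carriers Slc25a39 and Slc25a40 and the NAD+ carrier Slc25a51 belong to the same group. Slc25a40 was at 3.79, 4.97 and 3.71 CPM on polyribosomes and at 9.68, 11.7 and 2.88 CPM in total RNA. The groups overlapped, and preparation 3, with the shallowest library, went the other way. Its log2 fold change was -1.14 (SE 0.33, adjusted p = 0.0323) unpaired and -1.11 (adjusted p = 0.000417) paired. With the offset the paired value was -0.77 and no longer passed (adjusted p = 0.0177), and 10.1% of its 50-base stretches occur in a pseudogene. Slc25a39 was at 32.3, 22 and 18.1 CPM against 30.0, 25.5 and 26.9 CPM, with overlapping groups and a log2 fold change of -0.18 (adjusted p = 0.612). In the paired fit with the offset it was called lower, at -0.60 (adjusted p = 0.000938), beside -0.13 (adjusted p = 0.559) without the offset. Slc25a51 was at 54.2, 57.4 and 38.7 CPM on polyribosomes and at 71.0, 71.3 and 65.2 CPM in total RNA. All its polyribosome values were below, and the log2 fold change was -0.47 (SE 0.18, adjusted p = 0.0889) unpaired, -0.44 (adjusted p = 0.00446) paired and -0.29 (adjusted p = 0.0594) paired with the offset.

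The other members of the group passed in neither the unpaired nor the paired fit. The coenzyme A carriers Slc25a16 and Slc25a42 had log2 fold changes of -0.57 and -0.15, and the folate and FAD carrier Slc25a32 one of -0.46. Slc25a33, which also carries pyrimidine nucleotides, was the positive member, at 22.3, 16 and 19.6 CPM on polyribosomes and 23.1, 10.0 and 12.5 CPM in total RNA. Its groups overlapped, and the log2 fold change was 0.26 (SE 0.27, adjusted p = 0.541).

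The mitoferrins bring iron into the matrix for heme and iron-sulfur clusters. Slc25a37 was at 18.7, 13.3 and 12.6 CPM on polyribosomes and at 24.6, 20.8 and 28.8 CPM in total RNA, with no overlap. Its log2 fold change was -0.69 (SE 0.21, adjusted p = 0.0432) in the unpaired fit, -0.65 (adjusted p = 0.00164) in the paired fit and -0.53 (adjusted p = 0.00932) with the offset. Slc25a28 was at 5.68, 9.19 and 8.03 CPM against 7.95, 6.70 and 14.4 CPM, with overlapping groups and a log2 fold change of -0.18 (SE 0.30, adjusted p = 0.718). With the offset this was -0.74 unpaired and -0.75 paired, not past the threshold (adjusted p = 0.111 and 0.0135).

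Slc25a14, Slc25a27 and Slc25a30 resemble the uncoupling proteins, which let protons or anions cross the inner membrane. Slc25a27 (chromosome 17, 43641900 to 43667015) was at 5.68, 6.33 and 6.79 CPM on polyribosomes and at 16.9, 12.7 and 16.3 CPM in total RNA. The polyribosome level was thus 0.41 times that in total RNA, with differences of -1.50, -0.96 and -1.21 within the preparations and no overlap. The paired fit gave -1.30 (SE 0.22, adjusted p = 4.83e-07), and the offset left the paired value at -1.25 (adjusted p = 3.52e-07). It was called in 10 of 14 alternatives, with adjusted p between 3.52e-07 and 0.0438, and the unpaired call was lost without polyribosome replicate 1 or 2 and without total RNA replicate 1 or 2. None of its 50-base stretches is shared with another gene. Slc25a14 was at 33.8, 41.1 and 25.9 CPM against 30.5, 36.5 and 19.2 CPM, higher on polyribosomes in each preparation though the groups overlapped, with a log2 fold change of 0.17 (SE 0.23, adjusted p = 0.656). Slc25a30 had a value of -0.37 (SE 0.33).

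Slc25a46, an outer-membrane member that takes part in mitochondrial fission and in lipid transfer, had a log2 fold change of -0.20 (SE 0.20, adjusted p = 0.527), and 0.21 in the paired fit with the offset. Among the carriers without an assigned substrate, Slc25a34 was at 29.6, 28.5 and 28.8 CPM on polyribosomes and at 17.1, 20.4 and 15.3 CPM in total RNA. Its groups did not overlap, and the log2 fold change was 0.69 (SE 0.19, adjusted p = 0.0266) unpaired and 0.69 (SE 0.17, adjusted p = 0.000528) paired, falling to 0.37 (adjusted p = 0.0753) with the offset. Slc25a35, Slc25a45 and Slc25a53 had values of -0.51, 0.20 and -0.061, none past the threshold. Other genes share 25.3% of the 50-base stretches of Slc25a35.

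The 10 carriers that did not pass the filter had between 0 and 35 counts over the 6 libraries. They include Slc25a13, the aspartate-glutamate exchanger of liver, with 33 counts, and Slc25a24 with 35. Slc25a13 was at 1.35, 1.21 and 1.03 CPM on polyribosomes and at 0.993, 1.67 and 0.959 CPM in total RNA. Slc25a21, Slc25a47, Slc25a41, Slc25a48, Slc25a43 and Slc25a2 had 17, 15, 7, 6, 5 and 3 counts. Slc25a31, the ADP/ATP carrier of the testis, and Slc25a54 had 0 counts in each library. By counting error alone, 3 counts over a group would be 0.159 CPM on polyribosomes and 0.372 CPM in total RNA, so a level up to these could have been missed.

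Compared per kb of exon length, 5 carriers stood above the rest of the family in both groups. On polyribosomes they were Slc25a4 at 240.2 ± 60.3, Slc25a5 at 159 ± 52.2, Slc25a23 at 119 ± 16.2, Slc25a3 at 112 ± 12.8 and Slc25a18 at 98.7 ± 21.7 CPM per kb (SD, n = 3). Neighbours in this order overlapped in their values, while the lowest value of Slc25a18 lay above the highest of the next member, Slc25a44, at 33.1 ± 2.35. In total RNA Slc25a4 was again first, at 167 ± 5.54 CPM per kb. It was followed by Slc25a23 at 136 ± 23.1, Slc25a5 at 106 ± 7.79, Slc25a3 at 85.7 ± 1.66 and Slc25a18 at 54.1 ± 8.01 CPM per kb. Together these 5 made up between 62.0% and 69.1% of the family's CPM on polyribosomes and between 55.7% and 62.4% in total RNA. The family's summed CPM was between 2174 and 2442 on polyribosomes and between 1978 and 2053 in total RNA. The median carrier tested had 8.73 CPM per kb over both groups, beside 6.85 for the median gene tested, and 20 of the 37 lay above the latter. Slc25a36 ranked 23 in total RNA and 30 on polyribosomes.

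**Figure D3:**
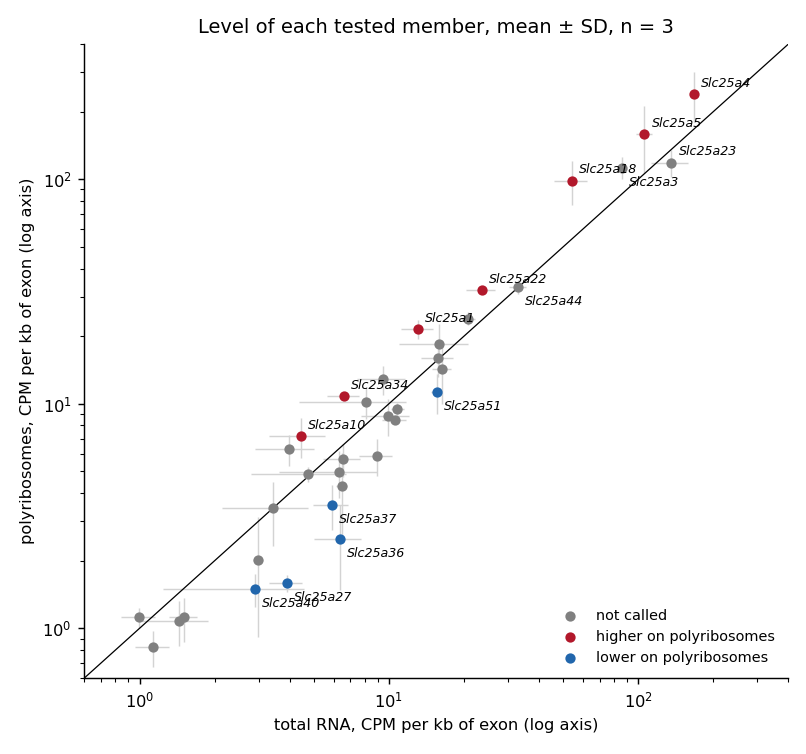
Level of 36 of the 37 carriers tested per kb of exon length, in total RNA (x) and on polyribosomes (y), mean ± SD of 3 libraries on log axes, with the line of equal levels. Red and blue mark carriers called higher and lower in the paired fit. Slc25a4, Slc25a5, Slc25a23, Slc25a3 and Slc25a18 form the upper cluster, and Slc25a36, Slc25a27, Slc25a37, Slc25a40 and Slc25a51 lie below the line.

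For 9 pairs of related carriers the log2 ratio of their CPM was computed in each library and compared by an exact two-sided permutation test. With 3 libraries against 3 this exact permutation test cannot go below p = 0.1, and the lowest of the 9 permutation p-values after Benjamini-Hochberg adjustment was 0.300. The ratio of Slc25a33 to Slc25a36 was 0.61 ± 0.75 on polyribosomes (SD over 3 libraries) and -1.19 ± 0.51 in total RNA, a difference of 1.80 with no overlap (exact permutation p = 0.1). These ratios are of CPM and not per length, so what is compared is the ratio between groups and not the level of both genes. Likewise without overlap, the ratio of Slc25a14 to Slc25a27 was 2.32 ± 0.40 on polyribosomes and 0.85 ± 0.63 in total RNA, a difference of 1.47 (exact permutation p = 0.1). The third pair without overlap was Slc25a1 to Slc25a11, at -0.20 ± 0.20 and -0.71 ± 0.18, a difference of 0.51 (exact permutation p = 0.1).

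In contrast, the ADP/ATP carriers kept nearly the same log2 ratio. Slc25a4 over Slc25a5 was 1.25 ± 0.10 on polyribosomes and 1.29 ± 0.16 in total RNA, a difference of -0.041 (exact permutation p = 0.8). Slc25a23 over Slc25a25 was 3.33 ± 0.23 and 3.33 ± 0.30. The glutamate carriers overlapped between the groups, with Slc25a18 over Slc25a22 at 1.01 ± 0.26 and 0.60 ± 0.35 (exact permutation p = 0.3), although the ratio was higher on polyribosomes in all 3 preparations, by 0.41 ± 0.10 (SD). The other pairs, Slc25a12 with Slc25a13, Slc25a28 with Slc25a37 and Slc25a39 with Slc25a40, differed by -0.32, 0.45 and 0.48 with overlapping values.

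**Figure D4:**
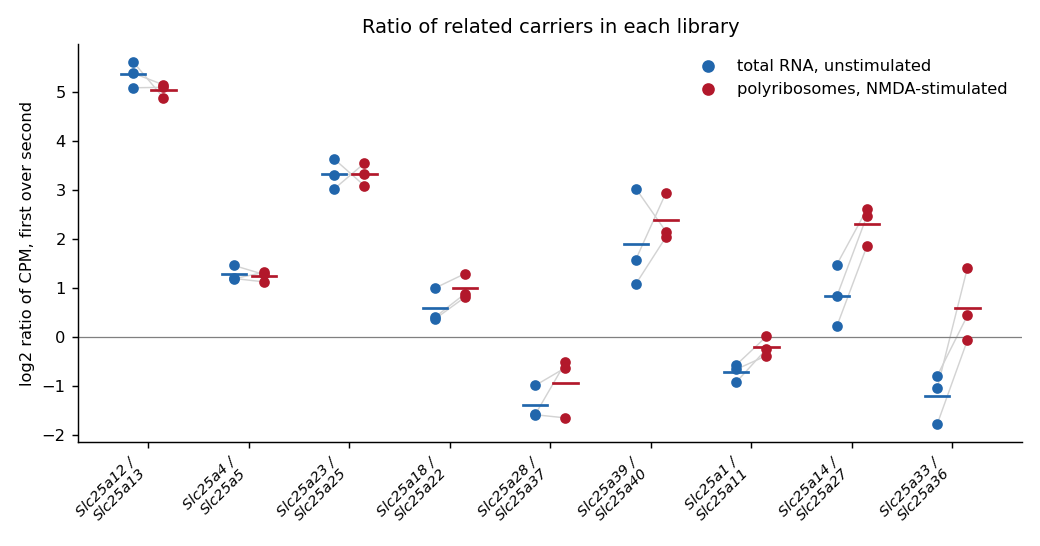
Log2 ratio of CPM of the first over the second gene of 9 related pairs, in each total RNA library (blue) and polyribosome library (red), with group means as short lines and preparations joined in grey. The groups do not overlap for Slc25a33 over Slc25a36, Slc25a14 over Slc25a27 and Slc25a1 over Slc25a11.

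The log2 fold changes went with the length and the base composition of the transcripts. Across the 37 carriers, Spearman's rho with the log2 fold change was -0.56 for exon length, -0.51 for the length of the 3′ untranslated region, -0.27 for coding length, 0.026 for the 5′ untranslated region and 0.50 for GC content. Over all 12238 genes with these values rho was -0.37, -0.24, -0.23, -0.034 and 0.53. These are correlations across genes of the same libraries, and genes are not independent replicates. The 7 carriers called higher in the paired fit had a median exon length of 1925 bases and 3′ untranslated regions of 693 bases, and the 5 called lower had medians of 4174 and 2986 bases. Their coding lengths had medians of 936 and 969 bases. The rho values above are of the unpaired fit. In the paired fit with the offset for GC content and length, rho with exon length was -0.31 and rho with GC content 0.045. The offset was fitted to GC content and exon length in these same libraries, so weaker rho values follow from its construction. It would also remove any real difference between the groups that goes with GC content or length. In the paired fit the offset moved the log2 fold change of 26 of the 37 carriers by over 1.5 times or turned its sign.

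**Figure D5:**
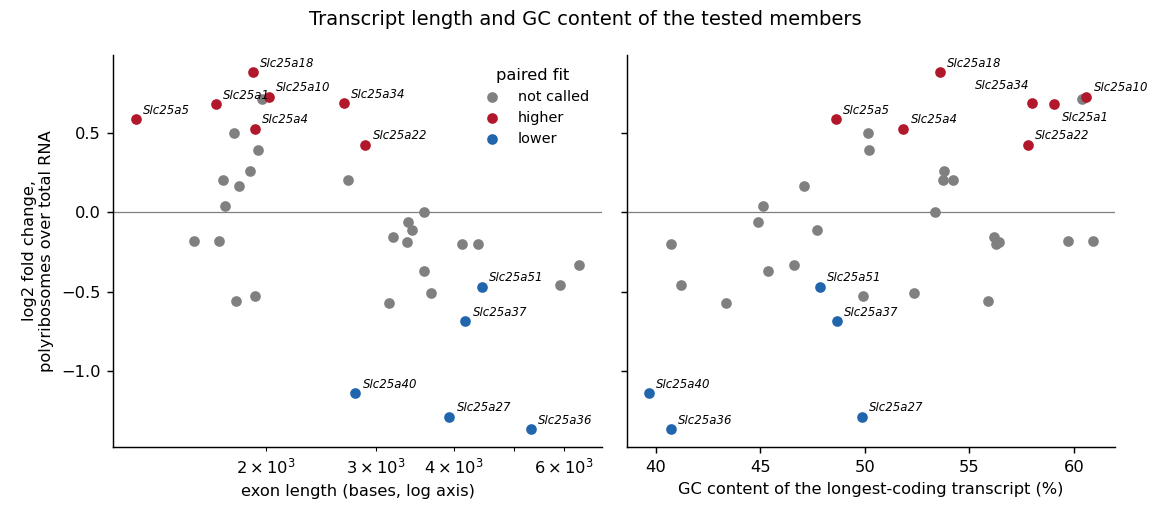
Log2 fold change of 36 of the 37 carriers tested (unpaired fit) against exon length (log axis, left) and GC content (right). Red and blue mark carriers called higher and lower in the paired fit. The 7 higher carriers have exon lengths with a median of 1925 bases, and the 5 lower ones a median of 4174 bases.

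The proteins that work with the carriers were read from lists of known partners. Of 5 family members with other names, Ucp1 had 0 counts and none of the other 4 passed, their log2 fold changes lying between -0.42 for Mtch2 and 1.21 for Ucp3. Among 18 tested genes of other mitochondrial transport systems, such as the porins, the pyruvate carrier and the calcium uniporter, none passed unpaired. Their values lay between -0.73 for Micu3, a brain regulator of the calcium uniporter, and 0.72 for Tspo, around a median of 0.086. The paired fit called 2 of these 18 higher, Sfxn5 and Mpc2, and 1 lower, Micu3, against 11.8% and 13.2% of all genes tested. Of the 19 enzymes given here that make or use the carried substrates, 15 had positive values, with a median of 0.31. The paired fit called 7 of these 19 higher, against 11.8% of all genes tested. They were Ckb, Glul, Gpd1, Mdh2, Glud1, Cs and Cpt1c. Gpd2 had the lowest value, at -0.14. The highest value was that of the brain creatine kinase Ckb, at 1.24 (adjusted p = 0.0249 in the unpaired fit). Glul, the glutamine synthetase of astrocytes, had a value of 0.72 (adjusted p = 0.0464 unpaired, 4.03e-06 paired). Of 7 tested import factors for carriers none passed unpaired, with values between -0.61 for Timm9 and 0.82 for Timm13. The paired fit called 1 of these 7 higher, Timm13, against 11.8% of all genes tested.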

How the data were processed

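RNA was measured in 6 libraries, 3 per group. The authors depleted ribosomal RNA, made strand-specific libraries, mapped reads with STAR 2.5.2b to mm10 and deposited raw counts per gene (GENCODE vM6), with 21958 protein-coding genes in the table used here. Strand use in counting is not given in the sources used here, so overlapping genes are uncertain. The deposited columns of the authors' DESeq2 comparison (mean signal, log2 fold change and its error, score, p-values) were not used. edgeR 4.0.16 (R 4.3.3) was run with TMM, filterByExpr and the quasi-likelihood test. Alternatives were DESeq2 1.42.0, other scalings and filters, the preparation as a block, a GC and exon length offset (GENCODE vM21, 99.86% of genes tested) and leaving out libraries. Ratios and differences within preparations used log2 CPM with a prior count of 2. Same-numbered libraries are aliquots of 1 preparation in the study's methods and across genes their departures from the group means were correlated (0.366, 0.258 and 0.380), so the numbers pair the samples. Replicates differed by more than sampling noise. Only the unpaired edgeR fit was tested on simulated counts, which had no preparation effect and no GC or length bias. Library totals (1044955 to 7361580) limit precision for weak carriers, and the floors cover counting error only. Values are named for every carrier tested but 1, and per library for carriers past the threshold in either fit, the 5 most abundant per kb and the related pairs. In lists they are named for the lowest, the highest and those past the threshold in the unpaired fit. Members and lists were chosen with earlier results of these data known. Shared sequence was counted as 50-base stretches found in other genes' transcripts on either strand. That carrier, which stays in the counts over the family, and 2 enzymes left out of their list are not reported here.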

Additional observations from a re-analysis of the deposited data

How the results depend on the processing

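In the unpaired fit 0 carriers were higher and 2 lower. The count of higher carriers became 7 with the replicate block (the preparation as a block), 2 with the block and the GC and length offset, 1 without the filter on low counts, 1 with DESeq2, 3 at an adjusted p under 0.05 and 10 at an unadjusted p under 0.05. The count of lower carriers became 5 with the block, 6 with the block and the offset, 1 with the offset alone, 4 and 6 at those thresholds. Leaving out 1 library of the unpaired fit gave 0 higher carriers each time and between 0 and 2 lower ones. Lower carriers numbered 1 without polyribosome replicate 1 and 0 without polyribosome replicate 2, total RNA replicate 1 or total RNA replicate 2. Shares over all genes were not computed for these fits, the fit without the low-count filter and the offset alone. A change in these counts therefore cannot be told apart from one over all genes. In the paired fit, leaving out a preparation gave between 1 and 3 higher carriers and between 2 and 5 lower ones, while between 4.19% and 11.7% of all genes were higher and between 5.52% and 12.8% lower. Fewer samples entered these fits. The median log2 fold change of the carriers was -0.26 with total counts only, which moved the median of all genes to -0.11, -0.018 with at least 10 counts in every library (28 carriers), -0.060 with the offset, -0.077 with the block and the offset, and between -0.20 and -0.061 when 1 library was left out. Of the 37 carriers 28 kept their direction under every alternative run, among them all 12 called in the paired fit. Slc25a11 (-0.090 and -0.089), Slc25a44 (-0.096 and -0.087), Slc25a15 (0.011 and 0.096), Slc25a46 (0.20 and 0.21) and Slc25a53 (0.16 and 0.15) changed sign with the offset without and with the block, and Slc25a32 (0.0064) with both. Total counts only turned Slc25a17 (-0.076) and Slc25a44 (-0.10), and the replicate block turned Slc25a17 (-0.0079). Leaving out 1 library gave ranges that crossed 0 for Slc25a15 (-0.32 to 0.085), Slc25a17 (-0.088 to 0.15), Slc25a28 (-0.38 to 0.037), Slc25a33 (-0.012 to 0.82), Slc25a44 (-0.043 to 0.064) and Slc25a53 (-0.21 to 0.25). None of these carriers was called in any fit. The cause was not tested. A prior count of 0.5 kept the direction of all 9 ratios of related carriers. Total RNA replicate 3, the shallowest library, held few counts of the weakest carriers.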
